A study of Mus musculus with 2 samples.

Results

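The collagen genes are the 44 genes of the annotation whose symbol reads Col, a number, a and a number and that have a protein-coding transcript, out of 55536 gene IDs, of which 22015 are nuclear protein-coding genes. They were followed in total RNA-seq of whole adrenal gland from 10-day-old female mice of the strain B6CASTF1/J, an F1 hybrid. The study has 1 group with 2 libraries, called replicate 1 and replicate 2, and no treatment or altered allele is named. The input was 300 ng of RNA per library, with spike-ins, and a directional kit was used after depletion of ribosomal RNA. The tissue labels name 2 different females, while the library descriptions repeat 1 of them. The labels therefore do not settle whether SDs over n = 2 hold spread between animals. Some marker lists of other tissues differed widely between replicates 1 and 2, as nephron tubule (63.6 and 304 TPM) and hepatocyte markers (5634 and 1092 TPM). The source of that difference was not tested. The exact test used below covers counting error between 2 libraries.

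Collagens are the main structural proteins of the extracellular matrix. Their chains share a repeat in which glycine alternates with a pair of other residues, which lets chains wind around each other into a rope-like helix. Fibrillar collagens have 1 long helix and pack into fibrils, type IV chains form the sheet-like network of basement membranes, and type VI chains form beaded filaments around cells. Other members bind to fibrils, span the plasma membrane or release fragments such as endostatin. In the adrenal gland, collagen is best known from the fibrous capsule and from the basement membranes around cords of steroid-producing cells and capillaries.

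The glycine repeat can be read in the coding sequences, and it is shown here because all members have it and because the length of its unbroken runs sets the fibrillar genes apart from the others. The lines give 90 coding bases each, 5′ to 3′, from the GENCODE M21 transcripts Col3a1-201 (from codon 164), Col4a1-201 (from codon 148) and Col6a1-201 (from codon 256), the most abundant fibrillar, basement membrane and type VI genes. Capitals mark glycine codons (GGN) at the spacing of the repeat.
Col3a1: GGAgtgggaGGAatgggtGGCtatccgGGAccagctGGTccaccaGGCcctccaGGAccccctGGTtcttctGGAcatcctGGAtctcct
Col4a1: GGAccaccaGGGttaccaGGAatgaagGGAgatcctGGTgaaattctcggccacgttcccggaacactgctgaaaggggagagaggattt
Col6a1: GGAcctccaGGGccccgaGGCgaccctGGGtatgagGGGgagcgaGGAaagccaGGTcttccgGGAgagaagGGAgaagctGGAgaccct
The Col3a1 and Col6a1 stretches hold 10 of 10 glycine codons at the spacing. The Col4a1 stretch was chosen at the end of that gene's longest run and holds 5 of 10, after which the repeat is broken.

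Over whole coding sequences, the 11 fibrillar members had a longest unbroken run of 216 to 344 triplets, with a median of 338. Col24a1 and Col27a1, minor fibrillar chains, were the shortest of them, at 216 and 217 triplets. The 6 type IV members had 22 to 27 separate runs of at least 5 triplets and a longest run of 39 to 66. Among the type VI genes, Col6a1 and Col6a2 shared a longest run of 87 triplets, and Col6a3, the largest of the main type VI chains, reached 45.

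**Figure D1:**
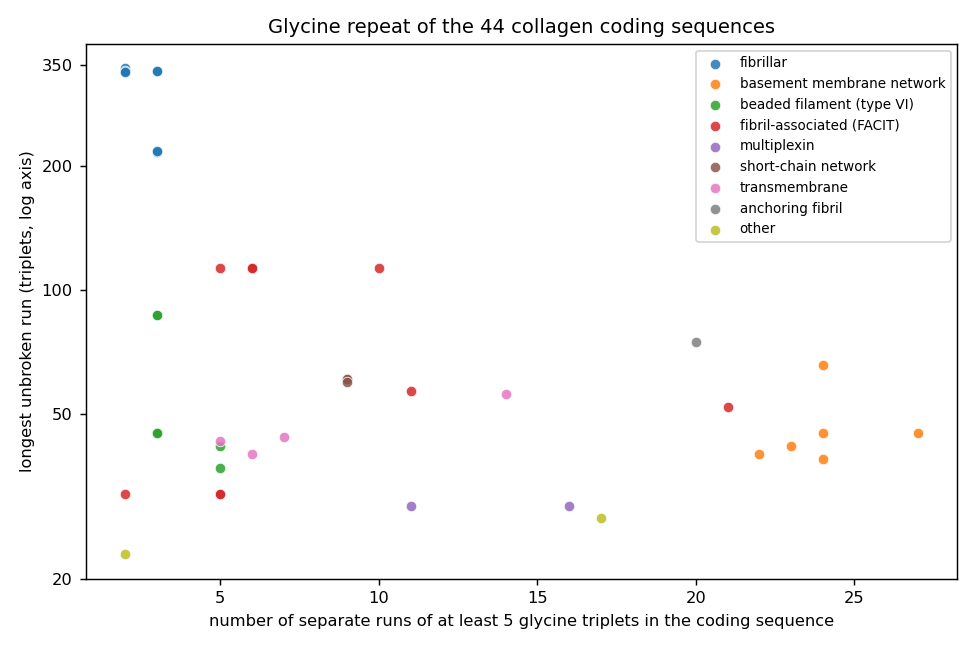
Each point is 1 collagen gene: the x axis counts separate runs of at least 5 glycine triplets in its longest complete coding sequence, the y axis (log scale) gives the longest run in triplets, and colour gives the structural class (some points coincide). The 11 fibrillar genes sit at the upper left with runs of 216 to 344 triplets, and the 6 type IV genes sit at the right with 22 to 27 runs.

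Collagen mRNA was abundant in both libraries and concentrated in a few genes. A TPM (a relative transcript number corrected for transcript length) of at least 1 in both libraries was reached by 32 of the 44 genes, against 58.1% of nuclear protein-coding genes. At least 10 TPM in both was reached by 16 genes (27.8% of nuclear protein-coding genes), and at least 100 TPM in both by 5 genes (2.24%). All collagen genes summed to 0.459% of nuclear protein-coding TPM in replicate 1 and 0.580% in replicate 2. In bulk tissue, fewer cells of a type and less RNA per cell cannot be told apart. Markers of other tissues were also high. In replicates 1 and 2, adipocyte markers summed to 4334 and 5179 TPM, beside 3870 and 4167 for adrenal cortex markers. Hepatocyte markers summed to 5634 and 1092 TPM and skeletal muscle markers to 3293 and 1107. Collagen levels here are those of the libraries, and their division between adrenal and other tissue was not tested. The 5 most abundant genes held 72.5% and 76.5% of the collagen TPM in replicates 1 and 2.

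Those 5 are the main chains of interstitial fibrils and of basement membranes. Col3a1, the only chain of type III collagen (chr1:45311538-45349706), had 356 TPM in replicate 1 against 386 in replicate 2, with a mean of 371 ± 21 (SD, n = 2), rank 100 of the nuclear protein-coding genes by mean TPM. Col1a1, the chain present in most copies in type I collagen (chr11:94936224-94953042), stood at 252 and 408 TPM. Its partner Col1a2 (chr6:4504814-4541544) stood at 181 and 267 TPM. Both type I genes were higher in replicate 2. The order of Col1a1 and Col3a1 differed between the libraries in these values, while in the other deposited quantification Col3a1 was the higher in both. Col4a1 (chr8:11198423-11312826) had 231 and 265 TPM, and Col4a2 (chr8:11312805-11449287) 112 and 126, the pair that makes the widespread type IV network.

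By class, fibrillar genes held 56.4% of collagen TPM in replicate 1 and 61.1% in replicate 2, 58.8% ± 3.33 (SD, n = 2). Type IV genes held 23.0% and 22%, and type VI genes 10.8% and 9.22%. The 2 multiplexins, Col15a1 and Col18a1, held 5.05% and 3.35%, and the 9 fibril-associated (FACIT) genes 3.62% and 3.32%. These 5 classes had the same order by share in both libraries. The 4 transmembrane genes, the 3 short-chain network genes, the anchoring fibril gene Col7a1 and the 2 remaining genes each held under 1%.

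**Figure D2:**
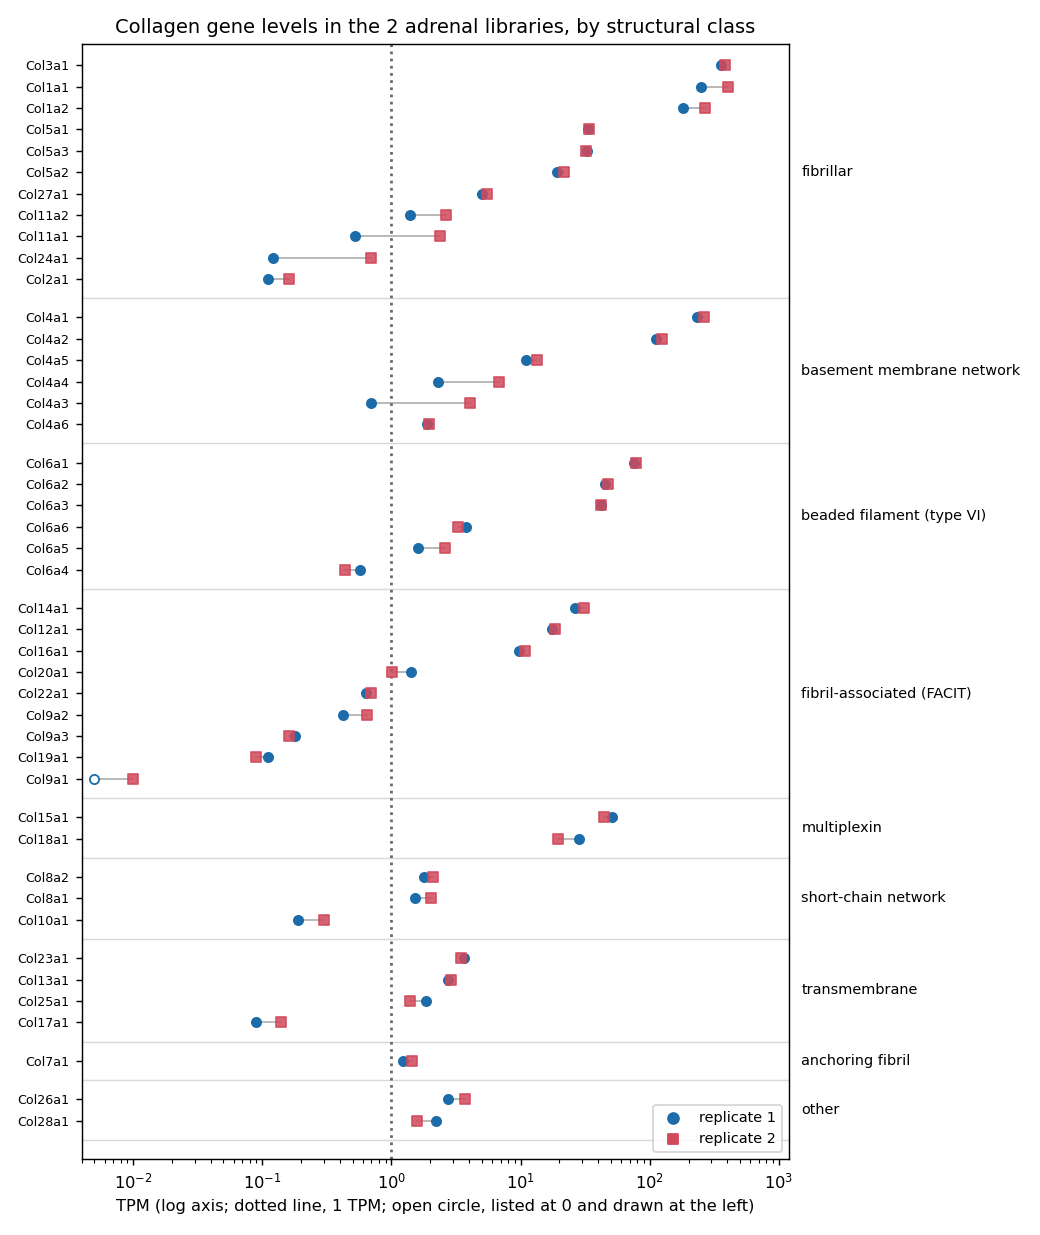
Gene-table TPM (log axis) of all 44 collagen genes in replicate 1 (circles) and replicate 2 (squares), grouped by structural class, with a dotted line at 1 TPM. The 5 genes above 100 TPM are Col3a1, Col1a1, Col1a2, Col4a1 and Col4a2, and the widest gaps in TPM between the libraries, apart from Col9a1 with its 0 in replicate 1, are those of Col4a3, Col24a1, Col11a1 and Col4a4.

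Below type I and III, the fibril-regulating type V chains followed. Col5a1 was at 33.2 and 33.7 TPM, Col5a3 at 32.7 and 32.1, and Col5a2 at 19.2 and 21.7. Their SDs over the 2 libraries were 0.389, 0.417 and 1.79 TPM. Col27a1, a minor fibrillar chain, was at 5.01 and 5.50 TPM. Of the type XI chains, Col11a2 was at 1.38 and 2.65 TPM and Col11a1 at 0.520 and 2.38. Col24a1 (0.120 and 0.7 TPM) and Col2a1, the main fibrillar collagen of cartilage (0.110 and 0.160 TPM), were under 1 in both libraries. The gap in the TPM of Col24a1 was wider than that in its counts, which were 28 and 48, or 1.91-fold, and the other quantification gave 0.165 and 0.340 TPM; of its 0.7 TPM in replicate 2, 0.5 stood on the 330-base transcript Col24a1-203, from 3.62 estimated counts.

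The other basement membrane and filament genes ranged widely. Col4a5 was at 11.0 and 13.5 TPM, and its neighbour on the X chromosome, Col4a6, at 1.87 and 1.94. Col4a4 was at 2.29 and 6.82 TPM and Col4a3 at 0.690 and 4.03. Col4a3, Col4a4 and Col4a5 chains assemble together in the filtration barrier of the kidney glomerulus, among other sites. Col6a1 was at 75.3 and 79.0 TPM, Col6a2 at 45.0 and 47.2, and Col6a3 at 41.9 and 42.2, the chains of classical type VI collagen. Their alternatives Col6a6, Col6a5 and Col6a4 lay between 0.440 and 3.79 TPM. Of the multiplexins, basement membrane zone proteins with a cleavable end domain, Col15a1 was at 50.7 and 44 TPM and Col18a1, the source of endostatin, at 28.1 and 19.5.

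Of the fibril-associated genes, which bind to the surface of fibrils, Col14a1 was at 26.5 and 31.1 TPM, Col12a1 at 17.5 and 18.5, and Col16a1 at 9.72 and 10.8. The transmembrane genes Col23a1, Col13a1 and Col25a1, the short-chain genes Col8a1 and Col8a2, and Col7a1, Col20a1, Col26a1 and Col28a1 ranged from 1.01 to 3.69 TPM over both libraries. The 10 genes under 1 TPM in both libraries were Col22a1, Col9a2, Col6a4, Col24a1, Col10a1, Col9a3, Col2a1, Col17a1, Col19a1 and Col9a1, between 0 and 0.7 TPM. They include the cartilage genes Col2a1, Col9a1, Col9a2, Col9a3 and Col10a1 and the skin anchor gene Col17a1. Col9a1 had 0 counts in replicate 1 and 1 in replicate 2, where a count of 0 allows up to 3.

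The gene sums rest mostly on full-length coding transcripts, but not in every gene. Of the 17 genes with a mean of at least 10 TPM, 16 had a protein-coding transcript as the most abundant one, and the same 16 had the same top transcript in the other deposited quantification. The top transcript held over 90% of gene TPM in 8 of the 17, among them Col1a1-201 (98.6%), Col1a2-201 (96.0%), Col4a2-201 (98.5%) and Col6a1-201 (99.3%), as means of 2 libraries. Others in this group were Col6a2-201 (93.6%), Col5a1-201 (99.8%), Col5a3-201 (94.3%) and Col5a2-201 (90.2%). The top transcript held less in Col3a1-201 (86.6%), Col4a5-202 (87.3%), Col4a1-201 (77.1%) and Col15a1-202 (63.8%). It held little over 50% in Col14a1-201 (56.8%), Col6a3-202 (54.6%), Col18a1-202 (53.3%) and Col12a1-201 (52.7%). The gene without a protein-coding transcript on top was Col16a1, whose top transcript, Col16a1-207, is a non-coding one with 25.7%, against 22.4% for the coding Col16a1-201 on top in the other quantification. In the other quantification the share moved by more than its SD in 16 of the 17, for example to 35.2% for Col18a1-202, 47.8% for Col14a1-201, 47.9% for Col6a3-202, 69.9% for Col12a1-201, 81.8% for Col1a2-201 and 83.3% for Col5a1-201.

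Short annotated fragments took part of the level of several abundant genes, and the 2 quantifications divided it differently. Col3a1-205, an incomplete coding model of 737 bases, held 11.6% of Col3a1 TPM in the gene-table quantification and 35.9% in the other. Col4a1-203, an incomplete model of 545 bases, held 22% and 16.7%, and Col6a3-206, a retained intron of 646 bases, 20.3% and 37.9%. Models of Col4a1 not annotated as protein-coding together held 0.92% in the gene table and 31.1% in the other quantification. There the share of Col4a1-201 was 51.6%. A 141-base miRNA model on the same strand, Gm47302, lies in the first exon of Col3a1. It was listed with 945 and 821 expected counts, or 669 and 625 TPM, in the gene tables and at 0 in the other quantification. Exons of 13 collagen genes overlap another gene's exons, in 10 of them on the opposite strand, and no source used here states whether reads were counted by strand.

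Some less abundant genes also differed in their top transcript. Col11a2 had a retained intron, Col11a2-207, on top in replicate 1 (44.3%) and the coding Col11a2-201 in replicate 2 (50.9%). Col7a1, at 1.23 and 1.45 TPM, also had different top transcripts in the 2 libraries. Models not annotated as protein-coding held 71.8% of its TPM by the mean. Its coding Col7a1-202 was at 0.420 and 0.320 TPM, under the detection limit of 1, and held 66.8% in the other quantification. Col6a4 had a nonsense-mediated decay model, Col6a4-204, on top by the mean (49.7%), and Col17a1 a non-coding one, Col17a1-205 (35.6%). In the other quantification both had a coding transcript on top, Col6a4-201 (78.6%) and Col17a1-202 (56.7%).

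Pairs of chains were compared within each library, where differences in depth and scaling cancel. Some pairs assemble together, and others share only a promoter region, a fibril type or, for Col15a1 and Col18a1, the multiplexin class. Col6a1 exceeded Col6a2 by a log2 ratio of TPM of 0.74 in both replicates, 1.67-fold. Col4a1 exceeded Col4a2 by log2 1.06 ± 0.02 (SD, n = 2), 2.09-fold. Col1a1 exceeded Col1a2 by log2 0.54 ± 0.10 (SD, n = 2), or 1.39-fold in replicate 1 and 1.53-fold in replicate 2. Chain numbers of the assembled collagens are set beside none of these ratios. Protein chains were not measured, so whether mRNA ratios follow chain numbers was not tested.

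The size of some of these ratios differed with the quantification and with the transcripts used. The Col4a1 to Col4a2 ratio was 3.12-fold in the other quantification, on gene sums that include models not annotated as protein-coding. It was 1.64-fold when only the most abundant transcript of each gene was used, a setting chosen after seeing the data. Col6a3 stood below Col6a1 by log2 -0.88 ± 0.04 (SD, n = 2) on gene sums and by -1.74 on the most abundant transcripts. Col1a1 over Col1a2 was log2 0.27 in the other quantification.

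Col5a1 exceeded Col5a2 by log2 0.71 ± 0.11 (SD, n = 2). Col5a2 stood at log2 -3.97 ± 0.37 (SD, n = 2) relative to Col1a1, a 15.7-fold gap between a regulatory and a bulk fibril chain. Col3a1 over Col1a1 was log2 0.50 in replicate 1 and -0.08 in replicate 2, so its mean of 0.21 did not exceed its SD of 0.41, whereas the other quantification gave 0.98 and 0.35, with a mean of 0.66 above its SD of 0.44. Col4a5 exceeded Col4a6 by log2 2.68 ± 0.17 (SD, n = 2). Col4a3 stood below Col4a4 in both libraries, by log2 -1.73 in replicate 1 and -0.76 in replicate 2. Col8a1 and Col8a2, at 1.52 and 2.01 TPM and at 1.80 and 2.09 TPM, differed by log2 -0.15 ± 0.13 (SD, n = 2), and the sign in replicate 2 turned in the other quantification. Col15a1 over Col18a1 was log2 1.01 ± 0.23 (SD, n = 2), or 2.02-fold, against 0.37 ± 0.30 (SD, n = 2), or 1.30-fold, in the other quantification. Col9a1 was too low for a ratio to Col9a2, which was at 0.420 and 0.650 TPM. With 2 libraries, the smallest two-sided p of an exact sign-flip test on any of these ratios is 0.5.

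**Figure D3:**
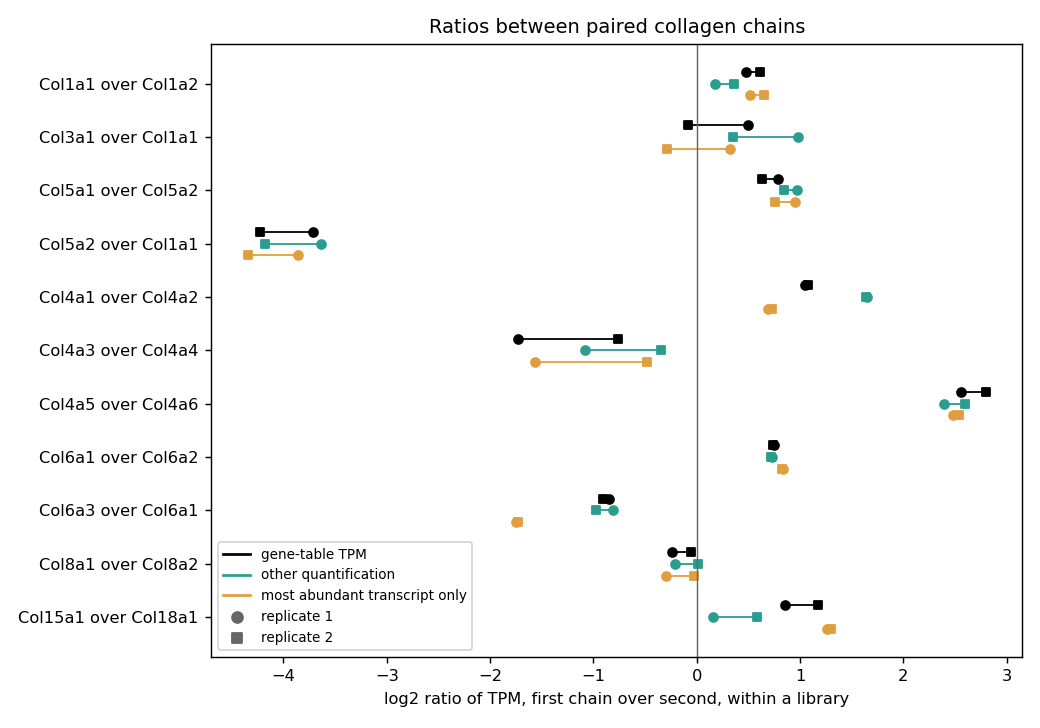
Log2 ratio of TPM between paired chains within replicate 1 (circles) and replicate 2 (squares), from the gene table (black), the other quantification (green) and the most abundant transcript of each gene (yellow). Col6a1 over Col6a2 lies at 0.74 in both libraries, while Col4a1 over Col4a2 lies at 1.06 in the gene table, 1.64 in the other quantification and 0.71 on the most abundant transcripts.

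The type IV genes lie in head-to-head pairs, and the bases at their starts are shown because Col4a3 and Col4a4, the type IV genes that differ most between the libraries, share them. On chromosome 8 the first exons of Col4a1 and Col4a2 overlap by 22 bases (chr8:11312805-11312826, plus strand). On chromosome 1, 71 bases separate the start of Col4a4 from that of Col4a3 (chr1:82586850-82586920, read here on the minus strand, towards Col4a4). On the X chromosome the starts of Col4a6 and Col4a5 are separated by 1308 bases. Sequences are from RefSeq promoter windows on GRCm38.p6, and capitals mark the TATA box (TATAAA), the CCAAT box (CCAAT) or the GC box (GGGCGG) on either strand.
Col4a1 and Col4a2 overlap: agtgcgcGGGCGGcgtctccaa
between Col4a4 and Col4a3: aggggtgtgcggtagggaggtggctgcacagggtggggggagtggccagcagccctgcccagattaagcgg
The overlap holds 1 GGGCGG match in 22 bases, and the 71 bases hold none of the 3 motifs. Of 44 collagen genes, 35 matched the RefSeq table, with 38 windows of 250 bases before to 50 after the start. GGGCGG, on either strand and with overlaps between motifs allowed, stood in 60.5% of the 38 collagen windows and in 35.7% of all 32851 windows. TATAAA stood in 13.2% and 13.6%, and CCAAT in 34.2% and 37.4%. These are descriptions of letters, not of bound sites. The collagen windows were also richer in G and C, the letters of GGGCGG, with a median of 59.8% against 52.7% in all windows. The part of this in the GGGCGG shares was not tested. Some collagen windows overlap and are not separate, as those of Col4a1 and Col4a2 and the 2 of Col6a2.

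Between the libraries, 4 collagen genes differed past the limits used, all higher in replicate 2, and they were the type IV pair Col4a3 and Col4a4 and the type XI pair Col11a1 and Col11a2. A gene was called at an adjusted p under 0.05 in an exact binomial test of TMM-scaled counts and a difference of at least 2-fold, with 42 of 44 genes tested. Over all 18883 genes tested, 2.74% were called higher in replicate 2. None of the 42 was called higher in replicate 1, where 4.11% of all genes were called, and 5 of the 42 had an unadjusted exact p under 0.05 in that direction. With DESeq2 size factors in place of TMM, 0 were called higher in replicate 1 as well. The calls compare 2 libraries, not conditions.

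Col4a3, at 0.690 TPM in replicate 1 and 4.03 in replicate 2, was 6.30-fold higher in scaled counts (95% exact interval 5.39 to 7.41, counting error only). Col4a4, at 2.29 and 6.82 TPM, was 3.03-fold higher (2.77 to 3.31). Col11a1, on chromosome 3, at 0.520 and 2.38 TPM, was 3.76-fold higher (3.08 to 4.61). Col11a2, on chromosome 17, at 1.38 and 2.65 TPM, was 2.82-fold higher (2.34 to 3.41), with the largest adjusted p of the 4, 1.25e-29 in the exact binomial test. Col4a3 and Col4a4 belong to the collagen of the glomerular filter, and Col11a1 and Col11a2 to fibrils of cartilage and, less so, of other tissues.

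Without the fold limit, 23 collagen genes were beyond counting error towards replicate 2, against 14.0% of all genes tested, and 3 towards replicate 1 (Col15a1, Col18a1 and Col6a4), against 12.5%. Small differences pass such a limit where counts are high, as for Col3a1, at 1.10-fold with 58320 and 57670 counts. The background was not matched for counts, so depth may hold part of the gap. Over the 42 genes the median log2 ratio was 0.17, with 31 above 0, against -0.01 for all genes tested. Scaling by total counts moved these medians to 0.11 and -0.07. Col1a1 and Col1a2 were the most shifted abundant genes, 1.68-fold (1.66 to 1.70) and 1.53-fold (1.51 to 1.56) higher in replicate 2. They and Col24a1 passed at a limit of 1.5-fold, which gave 7 genes higher in replicate 2 and 1, Col6a4, higher in replicate 1. Col3a1, Col5a1, Col6a1, Col6a2, Col6a3 and Col12a1 lay between log2 0.07 and 0.14. Col5a3 was at log2 0.04, within counting error, and at -0.03 with total counts.

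**Figure D4:**
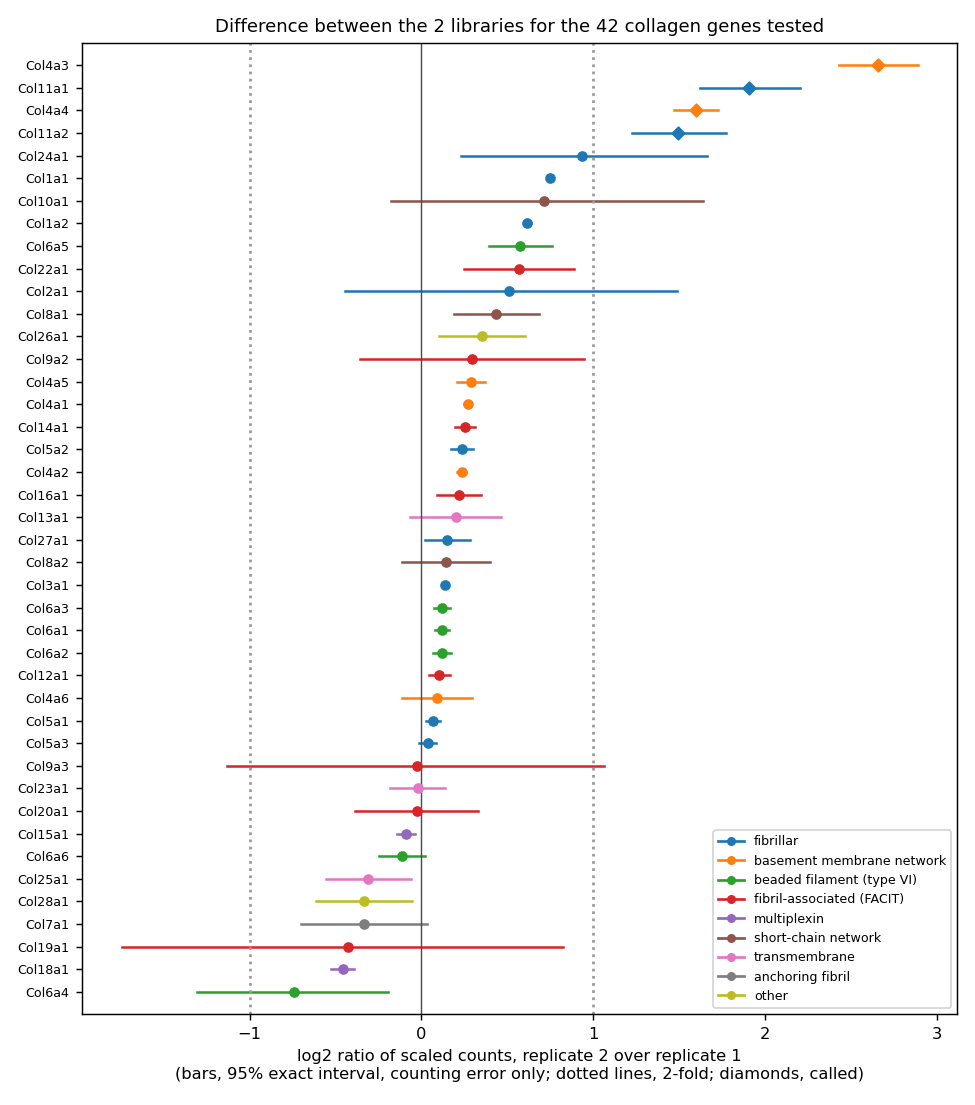
Log2 ratio of scaled counts, replicate 2 over replicate 1, for the 42 collagen genes tested, with 95% exact intervals of counting error, coloured by class; dotted lines mark 2-fold and diamonds the called genes. The 4 called genes, Col4a3, Col11a1, Col4a4 and Col11a2, lie to the right of 2-fold, and Col18a1 is the most shifted abundant gene to the left, at -0.46.

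Marker lists of other tissues differed between the libraries as well. The 8 nephron tubule markers summed to 63.6 TPM in replicate 1 and 304 in replicate 2, and 7 of the 8 were called higher in replicate 2, with 1 of the 8 at 1 TPM or more in replicate 1 (Aqp1, also an endothelial gene). The 5 podocyte markers, whose cells make the type IV network of the glomerulus, summed to 31.8 and 44.4 TPM. Of these Nphs1 was at 0 and 1.67 TPM and Wt1 at 1.70 and 2.71, both called higher in replicate 2. The part of these lists in the difference of Col4a3 and Col4a4 was not tested. The fibroblast list summed to 238 and 252 TPM, the endothelial list to 378 and 386, and the pericyte list to 130 and 143. None of these 3 lists had a called member, and their median log2 ratios were 0.11, 0.11 and 0.16. In lists this short, here and below, 0 calls is near the background of 2.74% and 4.11% called higher in replicates 2 and 1.

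The 8 cartilage and bone markers summed to 2.77 TPM in replicate 1 and 29.9 in replicate 2. The osteoblast genes Bglap (0.520 and 25.2 TPM), Ibsp (0.0200 and 1.4) and Sp7 (0.05 and 0.490) were called higher in replicate 2, though reads of Bglap can be split with near-identical copies. The cartilage genes Acan, Sox9 and Comp lay between 0.150 and 0.570 TPM and were not called, nor was Runx2 (1.12 and 2.02 TPM), and Matn1 was at 0 in replicate 2. Among genes of collagen breakdown, Mmp13 (0.0900 and 1.34 TPM), Mmp9 (0.860 and 2.49) and Ctsk (4.98 and 10.8), known from bone remodelling among other tissues, were called higher in replicate 2 too. The part of these markers in the differences of Col1a1, Col1a2, Col11a1, Col11a2 and Col24a1 was not tested.

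Col18a1 went the other way, and its transcripts did so unequally. The gene has a start at 77166548 on the minus strand of chromosome 10 (Col18a1-202) and a second promoter 52843 bases downstream (Col18a1-203 and, close by, Col18a1-201). Forms from the downstream promoter are known to be abundant in liver. The 100 bases before each RefSeq start are given on the gene's strand, with the same motifs in capitals.
Col18a1 upstream (chr10:77166531-77166630): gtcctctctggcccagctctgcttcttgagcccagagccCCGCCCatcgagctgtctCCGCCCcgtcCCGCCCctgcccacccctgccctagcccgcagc
Col18a1 downstream (chr10:77113706-77113805): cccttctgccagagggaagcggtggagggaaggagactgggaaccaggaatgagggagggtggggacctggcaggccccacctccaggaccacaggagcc
The upstream window has 6 CG pairs and 3 GGGCGG matches, all on the other strand, and the downstream window has 1 CG pair and none of the 3 motifs.

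Transcripts from the upstream start summed to 13.2 TPM in replicate 1, against 11.7 in replicate 2, and those from the downstream start at 14.5 and 7.67. The downstream sum was thus 1.89-fold higher in replicate 1 and the upstream one 1.13-fold. The other quantification gave 1.85-fold for the downstream and 1.14-fold for the upstream start. Both splits leave out the incomplete model Col18a1-204, which was assigned to neither start. It stood at 10.5 and 10.3 TPM in the other quantification, against 0.49 and 0.17 in the gene-table one. Transcript levels are estimates that share reads between models, so no test was made of them. The 8 hepatocyte markers were all called higher in replicate 1, with a sum of 5634 TPM there and 1092 in replicate 2, or 5.16-fold. Their part in the difference of Col18a1 was not tested.

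**Figure D5:**
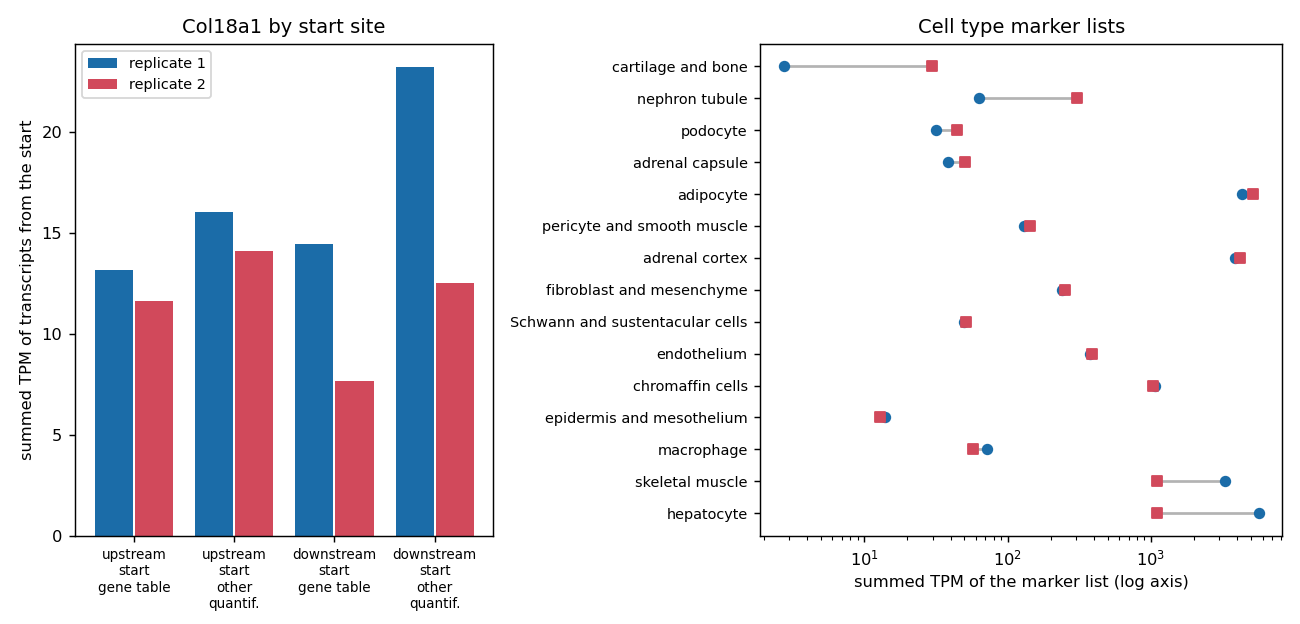
Left, summed TPM of Col18a1 transcripts from the upstream and the downstream start in both quantifications (bars from 0); right, summed TPM (log axis) of 15 cell type marker lists in replicate 1 (blue) and replicate 2 (red). In replicates 1 and 2 the downstream start stands at 14.5 and 7.67 TPM, the nephron tubule list at 63.6 and 304 TPM and the hepatocyte list at 5634 and 1092 TPM.

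Other lists bear on which cells the libraries hold. The 8 adrenal cortex markers summed to 3870 and 4167 TPM, the 8 chromaffin markers to 1072 and 1037, and no member of either was called. Capsule markers summed to 38.4 and 50.4 TPM, where Wt1, which the podocyte list also holds, was the 1 call, and macrophage markers to 71.5 and 57.8, Schwann markers to 49.8 and 51.1, and epidermis and mesothelium markers to 14.0 and 12.8, with Krt5 at 0 in replicate 1 and no call. Adipocyte markers summed to 4334 and 5179 TPM without a call, and the skeletal muscle list to 3293 and 1107, with 6 members higher in replicate 1 and 1 (Myh4) higher in replicate 2.

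Genes that act on collagen are described against the same backgrounds, 58.1% for detection (both libraries reaching 1 TPM, over nuclear protein-coding genes) and 2.74% and 4.11% of all tested genes called higher in replicates 2 and 1. Of 19 genes of collagen synthesis and secretion, 18 were at 1 TPM or more in both, led by Sparc (701 and 776 TPM), a collagen-binding matrix protein, P4hb (140 and 122), the shared subunit of prolyl 4-hydroxylase, and Ppib (120 and 121), a prolyl isomerase. Serpinh1, the collagen chaperone HSP47, was at 120 and 121 TPM. The 1 called gene was P3h2, a prolyl 3-hydroxylase acting on type IV collagen, at 1.54 TPM in replicate 1 and 6.73 in replicate 2, a log2 ratio of 2.15. The median log2 ratio was 0.05 in this list, 0.14 in the list of processing and cross-linking, 0.13 in that of proteoglycans and glycoproteins, 0.20 in that of receptors and 0.19 in that of degrading enzymes and inhibitors, beside 0.17 for the collagen genes and -0.01 for all genes tested. With lists this short, 0 calls is near the background share.

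Of 14 genes of procollagen processing and cross-linking, 12 were at 1 TPM or more in both libraries and 0 were called. The highest were Pcolce (121 and 114 TPM), an enhancer of propeptide removal, Pxdn (39.8 and 41.4), which cross-links type IV collagen, and Tgm2 (25.5 and 24.8), a transglutaminase. Of 12 fibril-associated proteoglycans and glycoproteins, 11 were at 1 TPM or more in both and 0 were called, led by Postn (107 and 111 TPM), Fn1 (109 and 88.9) and Dcn (91.5 and 95.4), of which Dcn is also in the fibroblast list. Collagen receptors were led by the integrin subunits Itgb1 (95.7 and 92.3 TPM) and Itga1 (19.6 and 23.7) and the kinase Ddr1 (13.1 and 14.2), with 6 of 10 at 1 TPM or more in both and 0 called of the 9 tested. Degrading enzymes and their inhibitors had 3 of 11 called higher in replicate 2, where the background is 2.74%; they are the 3 named above, and the list was led by the inhibitors Timp3 (69.7 and 70.6 TPM) and Timp2 (33.4 and 31.2) and the membrane protease Mmp14 (42.3 and 38.7).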

How the data were processed

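Total RNA-seq of 2 adrenal libraries was analysed. Per the labels and the deposited notes, the assembly was mm10 with annotation M21, and no source used here names the aligner, the quantifiers or a strand setting. The authors deposited per library a gene table and a transcript table with expected counts, TPM and a credibility interval of TPM (signal), each transcript's percent of its gene, and a second transcript table with estimated counts and TPM. Total expected counts were 35636846 and 33378436, and spike-ins took 0.979% and 0.929% of them. A count of 0 allows up to 3 counts and, like the intervals, this limit holds counting error alone.

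Expected counts were rounded and scaled with TMM (edgeR 4.0.16). Genes with at least 20 summed counts entered a two-sided exact binomial test (scipy 1.17.1) with Benjamini-Hochberg adjustment over all genes, and log2 ratios used a prior count of 0.5. Calls needed an adjusted p under 0.05 and 2-fold. The test was tested on simulated data. Promoter and coding sequences came from RefSeq and GENCODE M21. Values are printed for genes with a mean of at least 10 TPM, called genes and paired chains, and for the top 3 and called genes of each pathway list; Serpinh1, Gm47302 and single low members were added after their values were seen. Members and lists were chosen with earlier results of these data known. Alternatives were other scalings (DESeq2 1.42.0), filters, limits and the second quantification. 1 marker gene of the lists is not reported here and was left out of its list.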

Additional observations from a re-analysis of the deposited data

How the results depend on the processing

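The number of collagen genes at 1 or 10 TPM stayed within 1.5 times under every alternative, and ranged from 32 to 34 and from 16 to 17 when either library was left out. The mean collagen share of 0.519% (0.459% and 0.580% with 1 library each) became 0.173% over all features and 1.42% on expected counts. The 4 genes called higher in replicate 2 were called under each scaling, filter and quantification tried, with Col24a1 as the fifth in the other quantification; a limit of 1.5-fold gave 7 and 1 genes higher in replicates 2 and 1, and no limit 23 and 3. The median log2 ratio fell to 0.11 with total counts, and Col5a3 turned to -0.027. The other 83 alternatives for named genes kept direction and call. For chain pairs (mean log2), the other quantification gave 0.27 for Col1a1 over Col1a2, 0.66 for Col3a1 over Col1a1, 0.91 for Col5a1 over Col5a2, 1.64 for Col4a1 over Col4a2, 2.50 for Col4a5 over Col4a6, 0.73 for Col6a1 over Col6a2 and 0.37 for Col15a1 over Col18a1. The most abundant transcripts, a setting added after seeing the data, gave 0.86 for Col5a1 over Col5a2, 0.71 for Col4a1 over Col4a2, 0.83 for Col6a1 over Col6a2, -1.74 for Col6a3 over Col6a1 and 1.28 for Col15a1 over Col18a1, and posterior mean TPM gave 0.74 for Col6a1 over Col6a2. The cause of these shifts was not tested. No paired analysis was possible because the study has 1 group, and leaving out a library ends the comparison between libraries. Depth limits the 8 members under 100 summed counts.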
